A study of Homo sapiens with 3 samples.

Results

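The angiogenic ligands described here are 10 genes for secreted factors through which tumour cells can act on blood and lymph vessels: VEGFA, VEGFB, VEGFC, PGF, ANGPT1, ANGPT2, ANGPTL4, FGF2, THBS1 and PDGFC. They were chosen by name, with earlier results of these data known. All of their probe sets that name a single gene were taken, which gave 28 probe sets for 10 of the 19775 genes on the array. No probe set assigned to several genes named any of them. The cells were UM-UC-3, an established human bladder cancer line grown in medium with serum, transfected for 48 h with an siRNA at 75 nM: a negative control (the control group) or either of the reagents called DANCR siRNA1 and DANCR siRNA2. DANCR is a long noncoding RNA, and all 3 groups received an siRNA and a transfection reagent, so no array shows untreated cells. Amplified, biotin-labelled RNA of each group was read on a single Affymetrix array, without replicates, so every difference below is a size on these 3 arrays and not a test.

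The growth factors of the VEGF family bind tyrosine kinase receptors on endothelial cells. VEGFA acts mainly through KDR, PGF and VEGFB through FLT1, and VEGFC through FLT4 on lymphatic vessels. The angiopoietins act on the receptor TEK: ANGPT1 activates it and stabilises vessels, whereas ANGPT2 acts as its context-dependent antagonist. FGF2 is a heparin-binding growth factor, PDGFC activates PDGF receptors on stromal cells, ANGPTL4 inhibits lipoprotein lipase and is induced by hypoxia, and THBS1, thrombospondin 1, inhibits vessel growth through CD36 and CD47. In bladder tumours some such ligands can be made by the carcinoma cells, while most of their receptors sit on vessel and stromal cells that a culture of a single line does not hold.

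By the labels the groups differ in the siRNA alone, so the siRNA sequences as given in the labels are shown here. Each runs 5' to 3', and the capitals mark the T overhang at its 3' end.
control siRNA: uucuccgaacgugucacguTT
DANCR siRNA1: gcguacuaacuuguagcaaTT
DANCR siRNA2: gagcuagagcagugacaauTT

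The promoters of THBS1, ANGPTL4 and VEGFC are shown because these genes had the member differences on which the results below turn. Each window holds the 250 bases before the RefSeq start site on GRCh38.p14, and the capitals mark every match to the motifs searched.
THBS1, chr15:39580829-39581078, plus strand: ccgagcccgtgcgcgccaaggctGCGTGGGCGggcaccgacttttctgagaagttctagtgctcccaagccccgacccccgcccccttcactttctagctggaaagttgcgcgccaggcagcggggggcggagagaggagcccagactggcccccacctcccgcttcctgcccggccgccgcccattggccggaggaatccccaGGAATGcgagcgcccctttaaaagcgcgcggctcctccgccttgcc
ANGPTL4, chr19:8363905-8364154, plus strand: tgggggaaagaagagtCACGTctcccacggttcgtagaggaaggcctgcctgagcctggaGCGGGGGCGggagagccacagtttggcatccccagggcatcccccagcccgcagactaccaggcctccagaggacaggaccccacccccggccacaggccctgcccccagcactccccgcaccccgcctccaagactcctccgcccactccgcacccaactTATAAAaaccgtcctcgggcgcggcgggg
VEGFC, chr4:176792923-176793172, minus strand: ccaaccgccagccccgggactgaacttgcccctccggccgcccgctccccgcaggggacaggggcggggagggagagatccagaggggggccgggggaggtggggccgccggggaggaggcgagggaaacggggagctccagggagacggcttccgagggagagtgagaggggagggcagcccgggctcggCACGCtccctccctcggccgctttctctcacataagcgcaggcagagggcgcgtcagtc

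The searched motifs, on both strands, were the hypoxia response core as ACGTG and as GCGTG, the EGR motif as GCGTGGGCG and as GCGGGGGCG, the TEAD motif CATTCC, the TATA motif TATAAA and the CArG box. GCGTG is part of GCGTGGGCG, so a match to the second is also a match to the first. THBS1 held GCGTGGGCG beginning 227 bases before its start and CATTCC on the reverse strand 46 bases before it. GCGTGGGCG was in 0.72% and CATTCC in 11.9% of 35116 promoter windows of the same length. ANGPTL4 held ACGTG on the reverse strand (18.5% of windows), GCGGGGGCG (4.72%) and TATAAA 29 bases before its start (10.7%). In VEGFC the search found GCGTG alone, on the reverse strand, a motif of 32.2% of windows. FGF2, VEGFB and 1 of the 2 PGF windows also held GCGTG, and VEGFB held GCGGGGGCG. The CArG box (1.16% of windows) had no match in the 7 windows of 6 members. Their G and C content was 68.8% to 82.8%, against a median of 58.0% over all windows. These matches describe letters and are not evidence of binding. RefSeq windows for VEGFA, ANGPT1, ANGPT2 and PDGFC are not used here.

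The values deposited by the authors are linear intensities. A value counted as above the floor when it was over 10.5, the median of all values on the 3 arrays. Lower values were raised to the floor before a ratio was taken, so that a ratio reaching the floor on either side gives only a bound. On each array 48.9% to 49.3% of 54675 probe sets lay above the floor, and array means were 95.3 to 96.5. DANCR, the targeted RNA, had fallen from 671 in control cells to 116 (siRNA1) and 126 (siRNA2), as the labels imply. The mesenchymal genes VIM (5322, 4412 and 4861 in the order control, siRNA1, siRNA2) and ZEB1 (379, 358 and 281) and the keratin KRT18 (1315, 711 and 1022) were above the floor, as were the mesenchymal CDH2 and FN1, while TWIST1 of the same list was not. The epithelial keratins KRT7 and KRT8 were above it on all arrays at low levels, at most 28.2 and 21.5. EPCAM, CDH1, KRT19, KRT5 and the uroplakins UPK1A, UPK1B, UPK2 and UPK3A had no signal over the floor, so 3 of 6 epithelial and 3 of 8 urothelial markers were measured. GATA3, PPARG and FOXA1, the measured urothelial markers, lay between 12.5 and 35.2. Of 8 endothelial markers, CDH5, VWF, CLDN5, EMCN and ERG were below the floor on all arrays, and the other 3, PECAM1, ROBO4 and ECSCR, were at most 43.3, with ECSCR at 43.3, 13.0 and 12.5. The endothelial list summed to 122, 80.2 and 77.7 on the 3 arrays, the fibroblast and pericyte list to 129, 136 and 132, with COL1A2, DCN, LUM and ACTA2 below the floor, and the leukocyte list to 55.9, 54.3 and 49.9. The part of such cells in the ligand values was not tested. In a bulk culture, fewer expressing cells and less RNA per cell cannot be told apart.

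Among the ligands, 9 of 10 genes had a probe set above the floor on 1 array or more, and 8 had such a probe set on all 3 arrays. Over the 28 probe sets, 15 were above it on all arrays, 4 on a single array and 9 on none. ANGPT2, the TEK antagonist, was the gene without signal: its 4 probe sets read 1.71 to 3.45 on every array. For counts, each gene was represented by its brightest probe set, by the mean of the 3 arrays. A difference of 2-fold was the call, and 1 member reached it against the control. With siRNA1, 0 of 9 measured members were 2-fold higher, against 1.87% of 12436 measured genes, and 0 were 2-fold lower, against 1.75%. With siRNA2, 1 of 9 was 2-fold higher, THBS1, against 2.15% of measured genes, and 0 were lower, against 1.21%. No member was 2-fold from the control in the same direction with both siRNAs, against 0.997% of measured genes. At 1.5-fold in either direction, 2 of 9 members passed with siRNA1, against 13.2% of measured genes, and 3 of 9 with siRNA2, against 13%. None passed 1.5-fold in the same direction with both, against 4.79%. This depended on the processing: ANGPTL4 passed lower with both when the arrays were median-centred or quantile-normalised. ANGPT1 passed higher with both when _s_at and _x_at probe sets were left out. With so few members, these counts cannot be set apart from the background. The median member was at -0.18 (log2) with siRNA1 and 0.06 with siRNA2, where the median over all measured genes was 0.00 with both. Both comparisons use the same control array.

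**Figure D1:**
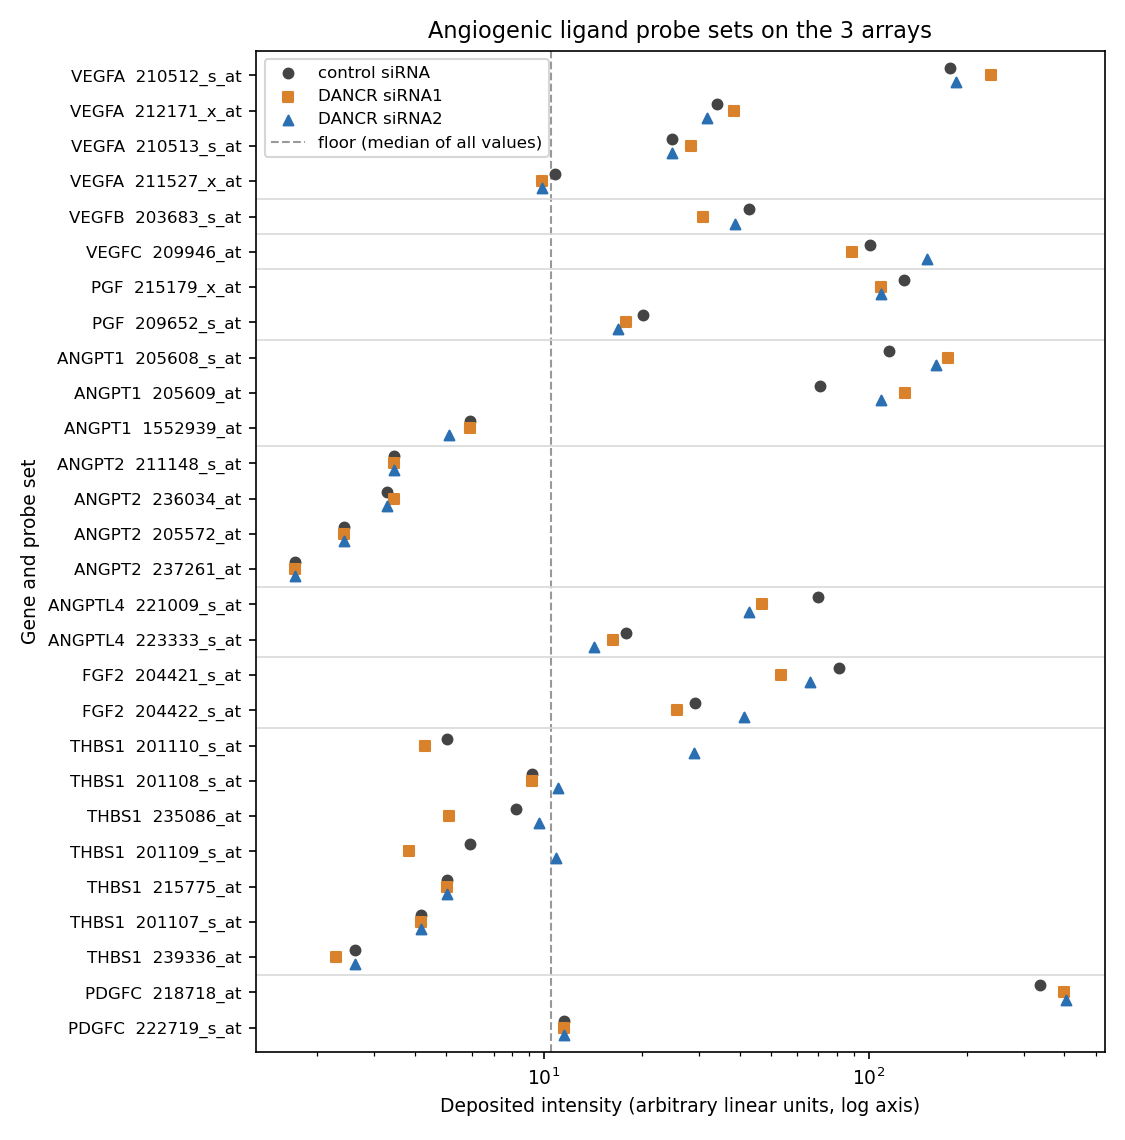
Deposited intensity (log axis) of all 28 probe sets of the 10 angiogenic ligands on the control siRNA (circles), DANCR siRNA1 (squares) and DANCR siRNA2 (triangles) arrays, 1 array each, with the floor of 10.5 as a dashed line. The ANGPT2 probe sets and most THBS1 probe sets lie left of the floor, and the THBS1 probe set at 29.1 with siRNA2 stands clear of its control (5.03) and siRNA1 (4.31) values.

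THBS1, the secreted inhibitor of vessel growth, was the member that passed 2-fold. On its brightest probe set, 201110_s_at, it read 5.03 in control cells, 4.31 after siRNA1 and 29.1 after siRNA2. The siRNA2 array alone was above the floor. This makes THBS1 at least 2.76-fold higher with siRNA2 than with the control or siRNA1, and gives no fold between siRNA1 and the control. Its other probe sets did not show a difference of that size. Probe set 201108_s_at read 9.20, 9.20 and 11.0, and 201109_s_at read 5.94, 3.84 and 10.9, so both crossed the floor with siRNA2 by less than 1 unit. The remaining 4, 235086_at, 215775_at, 201107_s_at and 239336_at, lay between 2.28 and 9.63 on all arrays. By the median over its 7 probe sets the log2 difference was 0.00, and with the floor at the 70th percentile THBS1 was not measured, so the call rests on a single dim probe set. RNA quality moved with it: the siRNA2 array had the highest 3'/5' ratios of the control transcripts, at 14.4 for ACTB (control 11.9, siRNA1 11.8) and 1.35 for GAPDH (control 1.25, siRNA1 1.29). The part of RNA quality in this value, or in any other siRNA2 difference reported here, was not tested.

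The THBS1 receptors did not pass 2-fold. CD47, an integrin-associated receptor of THBS1, read 1055, 924 and 1064 in the order control, siRNA1, siRNA2. CD36, the scavenger receptor, was at 9.48, 11.5 and 11.5, which is at the edge of the floor. Over 11880 other genes above the floor on all 3 arrays, the 2 whose pair of log2 differences lay nearest to that of THBS1 were PMEPA1, a TGF-beta-induced membrane protein, at 49.9, 49.9 and 138, and the antisense RNA DLGAP1-AS6, at 28.5, 28.5 and 77.5. Their Euclidean distances from THBS1 were 0.0022 and 0.019 on the log2 scale, over 3 arrays. Since the THBS1 value is a bound, this likeness holds for the floored values. With siRNA1, THBS1 had no difference because both its values were raised to the floor. PMEPA1 and DLGAP1-AS6 had none because their control and siRNA1 values were equal. The siRNA2 difference alone thus set the distances. DLGAP1-AS6 is antisense to another gene, and whether the array separates the strands is not given in the sources used here.

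ANGPT1, the agonist of TEK, was higher than the control on both siRNA arrays without reaching 2-fold. Its brightest probe set, 205608_s_at, read 116 in control cells, 175 after siRNA1 and 161 after siRNA2, or 1.51-fold and 1.39-fold higher. A second probe set, 205609_at, read 70.9, 129 and 109, or 1.82-fold and 1.53-fold higher. Both probe sets thus had the control array lowest and the siRNA1 array highest. The third, 1552939_at, was below the floor throughout, at 5.94, 5.94 and 5.09. Among the 2994 measured genes with a mean intensity of 100 to 300, the central 90% of log2 differences with siRNA1 ran from -0.75 to 0.79. The value of 0.60 of the brightest ANGPT1 probe set lay inside that range and the value of 0.87 of the second lay just above it. With siRNA2 the range was -0.66 to 0.83, and both ANGPT1 values, 0.48 and 0.62, lay inside. TEK itself, the receptor of ANGPT1, was not above the floor on any array.

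ANGPTL4, the lipase inhibitor, was lower than the control on both siRNA arrays, again short of 2-fold. It read 69.8 in control cells, 46.9 after siRNA1 and 42.8 after siRNA2 on probe set 221009_s_at, or 1.49-fold and 1.63-fold lower. On probe set 223333_s_at it read 17.9, 16.3 and 14.3, or 1.09-fold and 1.25-fold lower. The order of the arrays was the same on both probe sets, with siRNA2 lowest. Among 3618 measured genes with a mean intensity of 30 to 100, the central 90% of log2 differences with siRNA2 ran from -0.54 to 0.89, and ANGPTL4 at -0.70 lay below it. With siRNA1 the range was -0.75 to 0.83, and ANGPTL4 at -0.57 lay inside. In the same class, 18.6% of genes differed by 1.5-fold or more with siRNA1 and 17.0% with siRNA2.

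VEGFA, the main ligand of KDR, was above its control level with siRNA1 and near it with siRNA2. Its brightest probe set, 210512_s_at, read 178 in control cells, 238 after siRNA1 and 185 after siRNA2. That is 1.34-fold higher with siRNA1. With siRNA2 the log2 difference of 0.06 changed its sign when the arrays were median-centred (-0.02) or quantile-normalised (-0.0028), so it has no settled direction. Probe set 212171_x_at read 34.1, 38.5 and 31.7, and 210513_s_at read 24.9, 28.5 and 24.9, with the siRNA1 array highest on each. The fourth probe set, 211527_x_at, was at the floor, at 10.8, 9.86 and 9.86. The 3 probe sets above the floor spanned 0.18 to 0.42 with siRNA1 and -0.11 to 0.06 with siRNA2 on the log2 scale.

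VEGFB and PGF, both ligands of FLT1, were lower than the control on both siRNA arrays by less than 1.5-fold. VEGFB, on its single probe set, read 42.9 in control cells, 30.9 after siRNA1 and 38.6 after siRNA2, or 1.39-fold and 1.11-fold lower. PGF, placental growth factor, read 128 in the control and 109 with each DANCR siRNA on probe set 215179_x_at, 1.18-fold lower with both. The deposited siRNA1 and siRNA2 values of that probe set were exactly equal, so they may not be separate readings. The reason for the tie was not tested. The other PGF probe set, 209652_s_at, read 20.2, 17.9 and 16.9, at 88.5% and 83.5% of the control. These differences lay inside the central 90% of genes of like intensity. FLT1, their receptor, was dim, at 27.2, 23.8 and 23.3.

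VEGFC, the lymphatic growth factor, lay on opposite sides of the control with the 2 siRNAs. Its single probe set read 101 in control cells, 88.5 after siRNA1 and 151 after siRNA2. It was at 88.1% of the control with siRNA1 and at 150.3% with siRNA2, and the log2 difference between the siRNA arrays was -0.77. That value lay inside the central 90% of genes of like intensity, which ran from -0.86 to 0.74. FLT4, the receptor of VEGFC, was at 11.5, 9.87 and 10.5, at the floor.

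FGF2, the heparin-binding growth factor, gave different pictures on its 2 probe sets. On the brighter, 204421_s_at, it read 81.2 in control cells, 53.7 after siRNA1 and 65.8 after siRNA2, so the control was highest. The siRNA1 value was 1.51-fold lower and the siRNA2 value 1.23-fold lower. On 204422_s_at it read 29.2, 25.6 and 41.3, which is 1.14-fold lower with siRNA1 and 1.42-fold higher with siRNA2. The probe sets thus differed by 0.80 (log2) in the siRNA2 comparison, the widest gap among the 6 members with several probe sets above the floor on all arrays, and the median over both was 0.10 there. With siRNA1 both were below the control. FGFR1, a receptor of FGF2, read 245, 251 and 208.

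PDGFC, a PDGF receptor ligand, differed little between arrays. It read 337 in control cells, 400 after siRNA1 and 405 after siRNA2 on probe set 218718_at, at 118% and 120.1% of the control. The other probe set, 222719_s_at, had the same value of 11.5 on all 3 arrays. Such exact repeats were found in 6 of the 28 ligand probe sets (relative tolerance 1e-09), against 32.1% of all probe sets on the array. Among the 19 ligand probe sets above the floor on 1 array or more, 1 was equal on all 3 arrays. In all, 5 of these 19 were equal on 2 or 3 arrays, with the brightest PGF probe set among them. PDGFRB, a receptor of the PDGF family, was at 16.5, 13.5 and 13.5.

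**Figure D2:**
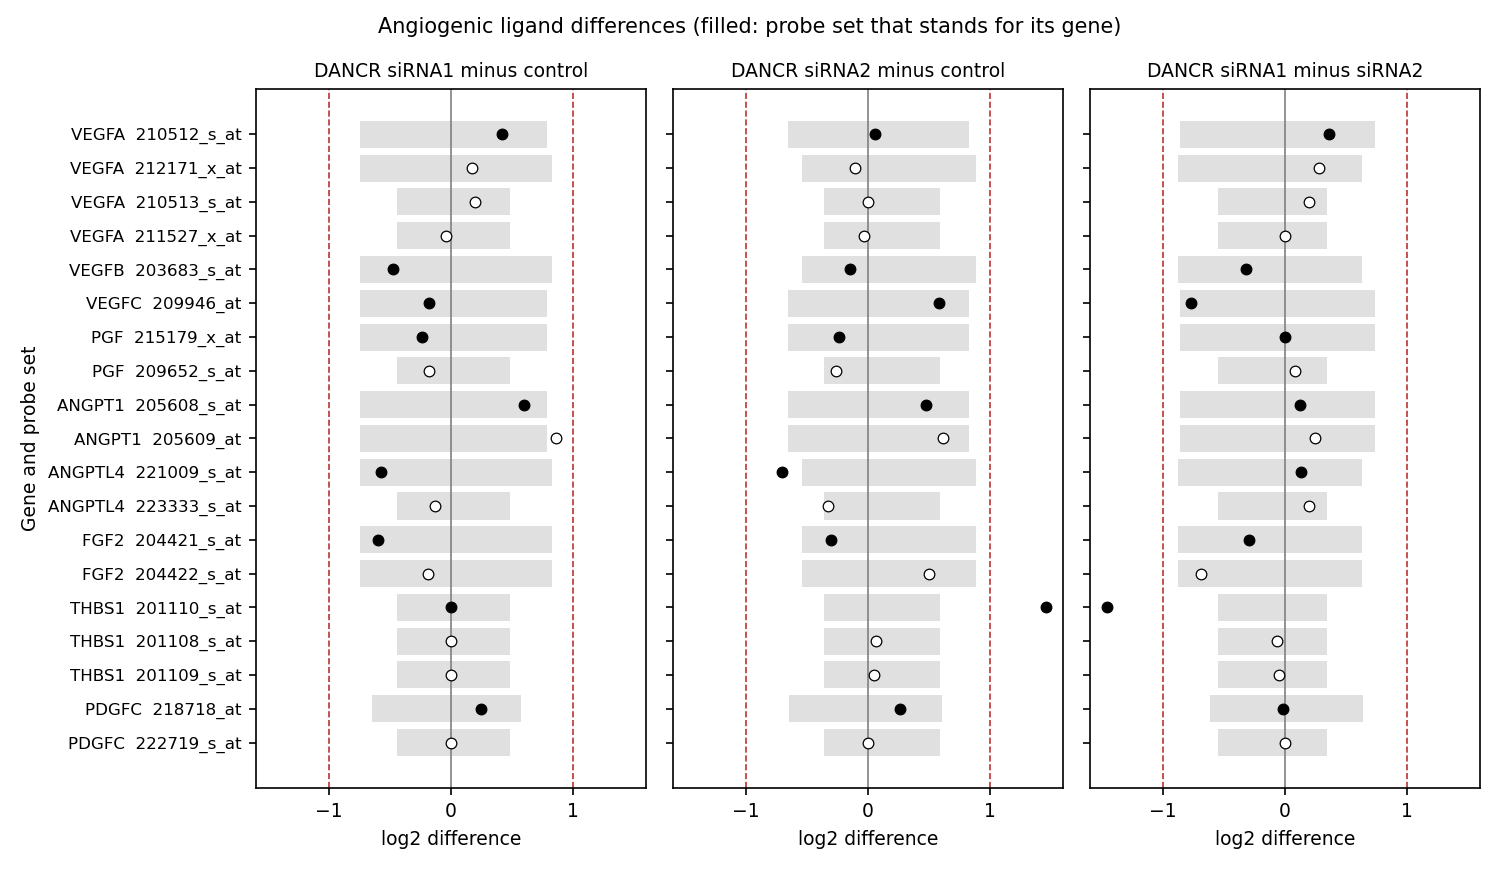
Log2 differences of the 19 ligand probe sets above the floor on 1 array or more, for DANCR siRNA1 minus control, DANCR siRNA2 minus control and siRNA1 minus siRNA2. Filled points are the probe sets that stand for their genes, and dashed lines mark 2-fold. Grey bars span the 5th to 95th percentile of measured genes of like mean intensity. Probe sets with a mean under the floor carry the bar of genes between the floor and 30. THBS1 lies at 1.47 with siRNA2 (a bound), and no other ligand crosses a dashed line.

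Set directly against each other, the siRNA arrays differed by 2-fold in 1 of 9 measured members, THBS1, lower with siRNA1. Among measured genes 2.4% were 2-fold lower and 1.51% were 2-fold higher on the siRNA1 array than on the siRNA2 array. At 1.5-fold in either direction 2 of 9 members passed, VEGFC and THBS1, against 13.8% of measured genes. VEGFC (-0.77), VEGFB (-0.32) and FGF2 (-0.29) were also lower with siRNA1 on the log2 scale, and VEGFA (0.36) was higher. For ANGPT1 (0.12), ANGPTL4 (0.13), PGF (0.00) and PDGFC (-0.02) the siRNA arrays lay within 0.2 of each other. The PGF values were an exact tie. The sign for PDGFC turned when the arrays were median-centred (0.05) or quantile-normalised. The median member was at -0.02, against 0.00 over all measured genes.

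Other ligands of the same families were mostly at or near the floor. Of 13 listed, 10 had a single-gene probe set and 6 were measured, with 0 at 2-fold in either direction with either siRNA. Among all measured genes 1.87% were 2-fold higher and 1.75% lower with siRNA1, and 2.15% higher and 1.21% lower with siRNA2. With so few genes, a count of 0 cannot be set apart from these shares. FGF1, the broad FGF receptor ligand, read 46.2 in control cells, 23.6 after siRNA1 and 29.2 after siRNA2, 1.96-fold and 1.58-fold lower, though its second probe set gave -0.08 and 0.00 (log2). PDGFA read 39.5, 39.2 and 27.2, or 1.45-fold lower with siRNA2, and its dimmer probe set read 21.5, 28.2 and 8.10, the last below the floor. FGF18 read 14.5, 12.5 and 11.5, and FGF5 read 12.0, 10.5 and 9.15. The list median was -0.10 with siRNA1 and -0.26 with siRNA2.

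The receptors and co-receptors of the ligands had 15 of 17 measured members, and KDR and TEK were below the floor. With siRNA1, 1 of 15 was 2-fold lower, against 1.75% of all measured genes, and 0 were 2-fold higher, against 1.87%. With siRNA2 none passed in either direction, against 2.15% higher and 1.21% lower. TIE1, the orphan partner of TEK, read 30.9 in control cells, 10.1 after siRNA1 and 19.5 after siRNA2, so it was lower by at least 2.94-fold after siRNA1 and by 1.58-fold after siRNA2. The other TIE1 probe set was at 2.81 on all arrays, so this call rests on a single dim probe set. FGFR3, a receptor often mutated in bladder cancer, read 27.2, 37.5 and 53.1, 1.95-fold higher with siRNA2, while its other probe set was at 2.28 on all arrays. The heparan sulphate co-receptor SDC1 read 115, 66.7 and 101, and its second probe set read 90.7, 79.5 and 88.5. PDGFRA read 6.50, 7.52 and 17.9, above the floor with siRNA2 alone. The list median was 0.00 with both.

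Among angiogenic factors of other families, CCN1, ADM and CCN2 were 2-fold higher with siRNA2. Of 14 measured among 16 other angiogenic factors, 3 were 2-fold higher with siRNA2, against 2.15% of all measured genes, and 0 lower, against 1.21%. The gene lists were chosen with earlier results of these data known, so this count and those of the other lists are no evidence of an excess. With siRNA1 0 passed in either direction, against 1.87% higher and 1.75% lower. CCN1, a matricellular ligand of integrins, read 477 in control cells, 341 after siRNA1 and 1233 after siRNA2, 2.59-fold higher with siRNA2, and its second probe set read 141, 90.3 and 317. ADM, the vasodilator peptide adrenomedullin, read 389, 386 and 956, 2.46-fold higher with siRNA2. CCN2, connective tissue growth factor, read 248, 207 and 500, 2.02-fold higher. EFNB2, the arterial ephrin, read 452, 377 and 791, 1.75-fold higher, and its second probe set read 71.7, 63.2 and 134. In these 4 genes the siRNA2 array was the highest and the siRNA1 array the lowest, for ADM by 1.01-fold under the control. The list median was -0.18 with siRNA1 and 0.02 with siRNA2.

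Of 12 other secreted inhibitors, 5 were measured, and 1 was 2-fold higher with siRNA2, against 2.15% of all measured genes. None was 2-fold lower with siRNA2, against 1.21%. With siRNA1 none passed in either direction, against 1.87% higher and 1.75% lower. ADAMTS1, a protease that releases inhibitory thrombospondin fragments, read 128 in control cells, 174 after siRNA1 and 340 after siRNA2, or 1.36-fold and 2.67-fold higher. Its second probe set read 27.2, 43.9 and 80.0, the same order. COL18A1, the source of endostatin, read 15.9, 15.9 and 21.6. SPARC read 372, 328 and 342, and VASH1 read 24.2, 22.9 and 22.9. THBS2 and THBS4, the relatives of THBS1, were below the floor.

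Hypoxia factors and their targets were set beside the ligands because VEGFA and ANGPTL4 are known hypoxia targets. Of 10 hypoxia factors and regulators 8 were measured, with 0 at 2-fold with either siRNA. EGLN3, a prolyl hydroxylase, read 27.6, 30.6 and 14.5, 1.90-fold lower with siRNA2, and its second probe set read 16.9, 20.4 and 13.5. ARNT, the partner of the HIF subunits, read 40.5, 37.7 and 71.2, 1.76-fold higher with siRNA2, and the next brightest of its probe sets read 33.5, 26.1 and 45.1. VHL, which marks HIF for degradation, read 46.2, 39.1 and 29.2, and HIF1AN read 108, 151 and 156. Of 13 hypoxia targets on the array 12 were measured. With siRNA1, 1 was 2-fold higher, against 1.87% of all measured genes, and 2 were lower, against 1.75%. With siRNA2 1 was higher, against 2.15%, and 0 were lower, against 1.21%. BNIP3, a mitophagy receptor, read 1956 in control cells, 879 after siRNA1 and 1531 after siRNA2, 2.23-fold lower with siRNA1, and its second probe set read 692, 249 and 438. PFKFB4, a glycolytic regulator, read 92.6, 45.4 and 55.5, 2.04-fold lower with siRNA1, and its dim second probe set read 14.3, 14.3 and 13.5. ERO1A, an oxidase of the endoplasmic reticulum, read 205, 454 and 360, 2.22-fold higher with siRNA1, but its other probe sets, at 121, 156 and 211 and at 49.9, 86.8 and 73.1, fell short of 2-fold there. DDIT4, an inhibitor of mTORC1, read 142, 160 and 317, 2.23-fold higher with siRNA2. Against the control these targets had no common direction, and the list median was -0.23 with siRNA1 and 0.01 with siRNA2. Between the siRNA arrays the list median was -0.56 (siRNA1 minus siRNA2, log2), against 0.00 over all measured genes. By brightest probe set, ANKRD37, P4HA1 and ERO1A were higher there with siRNA1. KDM3A was equal, and the other measured targets were lower with siRNA1. The ERO1A probe set at 121, 156 and 211 was instead higher with siRNA2. The difference in list median between the siRNA arrays was not tested.

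**Figure D3:**
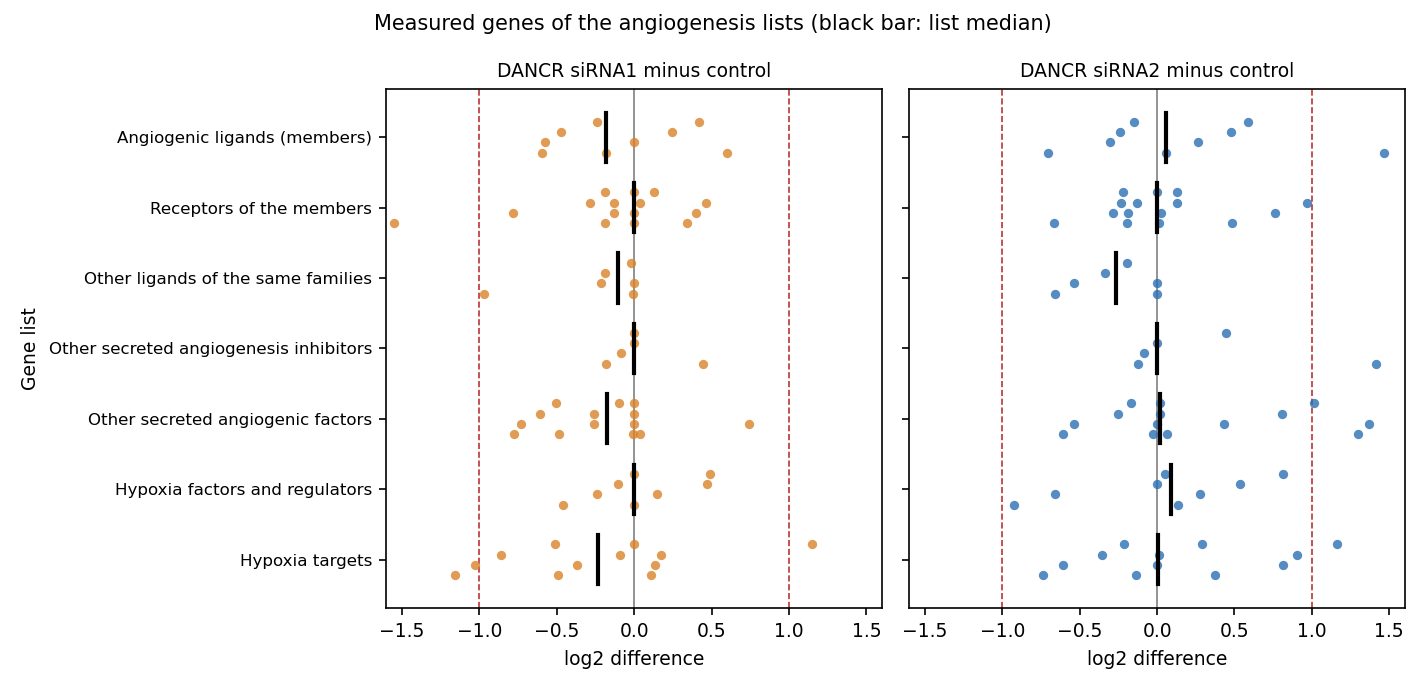
Log2 differences of the measured genes of the 7 angiogenesis and hypoxia lists, DANCR siRNA1 minus control on the left and siRNA2 minus control on the right, 1 point per gene, with the list median as a black bar and 2-fold as dashed lines. Points beyond 2-fold higher with siRNA2 are THBS1, ADAMTS1, CCN1, ADM, CCN2 and DDIT4, and the list medians lie between -0.26 and 0.09.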

How the data were processed

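Biotin-labelled RNA from UM-UC-3 cells was measured on 3 Affymetrix arrays, 1 each for the control siRNA, DANCR siRNA1 and DANCR siRNA2. The deposited values are intensities on a linear scale, brought to a common scale by the authors by a method that is not given in the sources used here. GCOS 1.4 is named in the submitters' processing notes. Probe sets were named from the supplied annotation, 41097 with a single gene, of which 41037 had a current RefSeq gene entry, 1801 with several and 11777 with none. Only the first class was used. Values below the median of all values were raised to it, log2 ratios were taken, and 2-fold was the call. The probe set with the highest mean stood for its gene.

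With 1 array per group, no test was run and no p-value is given, and the number of arrays limits the precision. The members and gene lists were chosen with earlier results of these data known. Named genes were all members, up to 4 per other list by size of difference, and the 2 genes nearest in pattern to a called member. The calling code was tested on simulated data with planted folds well past the call. Alternatives were 2 scalings, 3 floors, 2 probe set rules and thresholds of 1.5-fold and 3-fold. Python 3.11.15, numpy 2.4.6, pandas 2.3.3 and matplotlib 3.10.9 were used.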

Additional observations from a re-analysis of the deposited data

Results flagged for a closer look

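VEGFC, FGF2 and VEGFA had probe sets above the floor on all 3 arrays whose siRNA1 and siRNA2 values lay on opposite sides of the control by at least 0.1 (log2). These differences between the siRNA arrays were not tested, since each rests on 1 array per group. VEGFC differed by -0.77 (siRNA1 minus siRNA2, log2), from 88.5 with siRNA1 and 151 with siRNA2 around a control of 101. FGF2 probe set 204422_s_at differed by -0.69, from 25.6 and 41.3 around a control of 29.2, while its brighter probe set had both siRNA arrays below the control. VEGFA probe set 212171_x_at differed by 0.28, from 38.5 and 31.7 around a control of 34.1.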

How the results depend on the processing

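No paired analysis was possible because each group has 1 array. No array could be left out in turn for the same reason. The count of 1 member 2-fold from the control with siRNA2, and of 1 between the siRNA arrays, was THBS1 each time; both counts were 0 with the floor at the 70th percentile, with the median over probe sets, without _s_at and _x_at probe sets, which left 3 members measured, and at 3-fold. At 1.5-fold the counts were 2 with siRNA1 (ANGPT1 higher, FGF2 lower), 3 with siRNA2 (VEGFC and THBS1 higher, ANGPTL4 lower) and 2 between the siRNA arrays (VEGFC and THBS1). At that threshold 13.2% of measured genes differed with siRNA1 and 13% with siRNA2. Both scalings, the 30th percentile floor and no floor left the 2-fold counts as they were. The count of members called with both siRNAs was 0 under every alternative run, but 1.5-fold was run only with the main scaling, floor and probe set rule. ANGPTL4 was over 1.5-fold lower with both siRNAs after median-centring (-0.594 and -0.789) and quantile normalisation (-0.603 and -0.795). ANGPT1 with siRNA1 (0.579 and 0.578) and VEGFC with siRNA2 (0.503 and 0.525) lay under 1.5-fold after these scalings. Without _s_at and _x_at probe sets ANGPT1 was over 1.5-fold higher with both siRNAs, at 0.865 and 0.616. Without a floor the THBS1 log2 difference with siRNA2 was 2.53. Of 27 member log2 differences, 24 never took the opposite sign, and those of VEGFA and FGF2 with siRNA2 and of PDGFC between the siRNA arrays did. The 24 include PGF between the siRNA arrays and THBS1 with siRNA1, both at 0.00, for which no opposite sign could be counted. The scalings moved the median of all genes by at most 0.08. Values near the floor limit THBS1, ANGPT2 and the receptors.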
